A study of Mus musculus with 8 samples.

Results

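The genes described here are 33 genes of the p53 pathway and of the apoptosis machinery, measured in mouse embryonic stem cells. They were chosen by name, matched to array probes through the RefSeq accession of each probe, and make up 33 of the 22687 genes and unnamed features tested, 14493 of which carry a gene symbol. The choice was made with earlier results of these data known. A called share above that of all features is therefore a description and no evidence about the pathway. All 33 have a probe on the array, and 32 were well above background on all 8 arrays; the exception was Fas. By role they comprise p53 and its MDM inhibitors (3 genes), p53 target genes (7), BH3-only genes (7), anti-apoptotic BCL2 relatives (4), BAX, BAK and BOK (3), death receptors (2), caspases with APAF1 (4), and IAPs with DIABLO (3).

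Expression was measured on 8 Agilent arrays of 1 colour, with 2 arrays in each of 4 groups. All cultures, the controls too, grew with LIF, the cytokine that maintains embryonic stem cells, and with the FGF receptor inhibitor PD173074 at 250 nM. One group received nothing more and is called untreated here. The others received 4-hydroxytamoxifen (4OHT) at 250 nM, alone for 8 h, alone for 10 h, or for 8 h and then with a further 2 h in which the MEK inhibitor PD0325901 was given at 1 µM. Erk, which the title of the series names, is the kinase downstream of MEK. 4OHT commonly serves to activate a protein joined to an altered oestrogen receptor domain; the labels name no such protein, no strain and no cell line, and leave unstated if 4OHT was still present during inhibition. The comparisons ask how each transcript differed after 4OHT and after MEK was inhibited on top of it. The untreated samples are titled 0h, and no group was kept for 8 h or 10 h without 4OHT. Differences from untreated cells therefore cannot separate 4OHT from time in culture. No group received PD0325901 without 4OHT. Differences of the inhibited cells cannot separate the inhibitor from a possible removal of 4OHT. Nor can they separate a reversal of changes after 4OHT from an effect of the inhibitor in cells without 4OHT. The design text speaks of biological replicates without saying how cultures were kept apart, so each p-value reflects only how far these arrays differ among themselves, part of which may be technical.

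p53 is a transcription factor that is held at low activity by MDM2, a ubiquitin ligase that is itself a p53 target, and by MDM4. Among its targets are genes of cell-cycle arrest and of apoptosis. In mitochondrial apoptosis, BH3-only proteins bind and neutralise the anti-apoptotic BCL2 relatives or activate BAX and BAK, which permeabilise the outer mitochondrial membrane; cytochrome c then assembles APAF1 and caspase-9, and XIAP restrains the caspases until DIABLO binds it. ERK signalling is known to act on this network at several points, for example by phosphorylating BIM and marking it for degradation, a step that transcript levels do not report.

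Values are log2 processed signals relative to the 75th percentile of each array, given for replicate 1 and then replicate 2 of a group. A change is the log2 difference of the means of its groups, ± its standard error, from a limma fit to all 8 arrays. That fit leaves out the pairing of arrays by replicate number. Values with the replicate number as a block are given where a member's call changed. A gene is called when its two-sided p-value, adjusted by the Benjamini-Hochberg method over all features tested, is below 0.05. Levels of different genes come from different probes and are not compared. Of the 59305 non-control spots, 30218 to 37789 per array passed the scanner mark for being well above background; the replicate 1 arrays had at least 36889 and the replicate 2 arrays at most 31433. The number of arrays limits the precision.

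The 33 genes moved in both directions after 4OHT, in comparisons that share the untreated arrays. At 8 h 14 of 33 were called, 7 higher and 7 lower, where 21.7% of all features were called (10.3% higher and 11.5% lower). At 10 h 16 were called, 9 higher and 7 lower, where 27.9% of all features were called (13.1% higher and 14.8% lower). The members' median change was -0.08 at 8 h and 0.00 at 10 h, beside -0.04 and -0.05 over all features. Of the genes called at both times, 7 rose (Pmaip1, Bcl2l11, Bid, Bcl2l1, Xiap, Tnfrsf10b and Perp) and 6 fell (Bmf, Bad, Mdm4, Trp53inp1, Ei24 and Sesn1), while 16 of the 33 were called at neither time. The groups' arrays did not overlap for 23 members at 8 h and 24 at 10 h. Between 8 h and 10 h, where no member was called, they did not overlap for 12. The share over all features was not computed, so these counts are not a result about the members. In bulk RNA, fewer cells of a type and less RNA per cell cannot be told apart. Centring each array on its median in place of the 75th percentile raised the median of all features by 0.14 at 8 h and by 0.20 at 10 h, and the split of called members became 7 higher and 4 lower at 8 h and 10 higher and 4 lower at 10 h. With the replicate number as a block the split tilted the other way, with 18 called at 8 h (7 higher and 11 lower) and 21 at 10 h (10 higher and 11 lower). The count at 8 h fell to 8 without untreated replicate 2 and to 9 without either of the 4OHT 8h arrays, and at 10 h it fell to 10 without 4OHT 10h replicate 2.

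**Figure D1:**
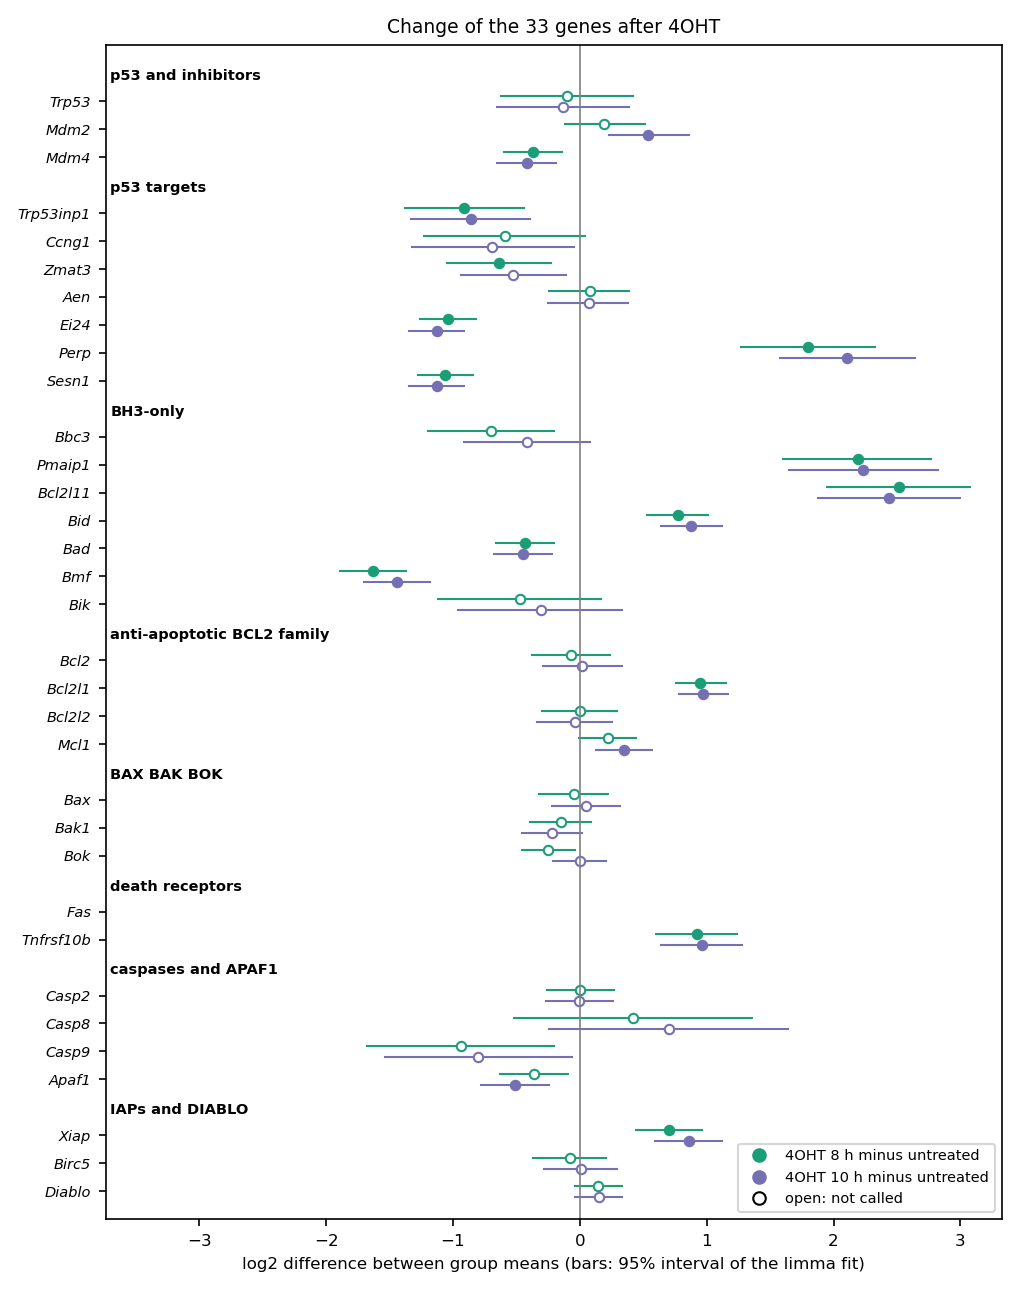
Log2 change of the genes after 8 h (green) and 10 h (purple) of 4OHT against untreated cells, grouped by role; horizontal bars are the 95% intervals of the limma fit, filled points were called, open points were not, and Fas is not drawn, since its untreated signal did not stand well above background. Both series share the 2 untreated arrays, and Bcl2l11, Pmaip1 and Perp lie farthest to the right and Bmf farthest to the left.

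Between 8 h and 10 h of 4OHT, none of the 33 genes was called by limma, as was none of all features (0%). At an unadjusted p below 0.05 there were 3 members, Fas, Bok and Mdm2, and 1499 of all features. The count of called members was 0 under each alternative of the processing as well.

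Fewer of the 33 genes were called in the comparisons of the inhibited cells. After 2 h of PD0325901, 6 of 33 genes were called against the time-matched 4OHT 10h cells, 3 higher and 3 lower, where 6.12% of all features were called (3.24% higher and 2.87% lower). Against the 4OHT 8h cells 8 were called, 6 higher and 2 lower, where 6.52% of all features were called (3.4% higher and 3.11% lower). Against untreated cells 5 were called, all higher, where 15.9% of all features were called (7.06% higher and 8.8% lower). These comparisons share arrays with those above, so values are set side by side without a test between comparisons. Median centring raised the median of all features by 0.12 in the comparison with untreated cells. With the replicate number as a block, 11 members were called against 4OHT 10h, 12 against 4OHT 8h and 12 against untreated cells. Against untreated cells these were 8 higher and 4 lower, and normexp background or an intensity trend gave 6 higher and 3 lower, so that the absence of lower calls did not hold across settings. Against 4OHT 10h the count fell to 2 without 4OHT 10h replicate 2 or without PD0325901 replicate 2. Against 4OHT 8h it fell to 5 without untreated replicate 2, to 3 without replicate 1 of either group compared, and to 2 without replicate 2 of either. Against untreated cells it fell to between 0 and 3 without any 1 of the 8 arrays, and was 0 without untreated replicate 2 or PD0325901 replicate 2.

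The transcript of p53 itself showed no called change. Trp53 stood at 2.20 and 1.56 in untreated cells, 1.81 and 1.74 after 8 h of 4OHT, 1.70 and 1.79 after 10 h, and 1.46 and 1.66 after PD0325901. The untreated arrays were the farthest apart and spanned both 4OHT groups. The change at 8 h was -0.10 ± 0.21 (adjusted p = 0.765), with a 95% interval from -0.62 to 0.42, so that shifts within that range were not resolved; centred on the array median the estimate was 0.03. The mRNA level does not report p53 protein, whose amount is set largely by its turnover.

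The MDM genes moved apart. Mdm2 stood at 4.60 and 4.94 in untreated cells, 4.92 and 5.01 at 8 h, 5.28 and 5.35 at 10 h, and 4.90 and 4.79 after PD0325901. Both 10 h arrays lay above all others, and Mdm2 was called higher at 10 h (0.54 ± 0.13, 1.46-fold, adjusted p = 0.0277) but not at 8 h (0.19 ± 0.13, adjusted p = 0.333). Its difference between PD0325901 and 4OHT 10h was -0.47 ± 0.13 (adjusted p = 0.106). Mdm4, which encodes a relative of MDM2 that binds the activation domain of p53, stood at -0.07 and 0.01 in untreated cells, -0.33 and -0.46 at 8 h, -0.37 and -0.52 at 10 h, and -0.38 and -0.28 after PD0325901. It fell by 0.37 ± 0.09 at 8 h (adjusted p = 0.0407) and by 0.42 ± 0.09 at 10 h (adjusted p = 0.0236). After PD0325901 it was not called against 4OHT 10h (0.12 ± 0.09, adjusted p = 0.539). These were among the smaller called changes and the less stable ones. The Mdm2 call was lost without any 1 of 6 arrays (adjusted p from 0.055 to 0.152), the arrays other than untreated replicate 2 and PD0325901 replicate 1. The Mdm4 call at 8 h was lost without any 1 of the 8 arrays (0.0629 to 0.238), and at 10 h without any 1 of 6 arrays (0.0504 to 0.149), those other than 4OHT 8h replicate 1 and PD0325901 replicate 1. A second Mdm4 probe, in a fit over all probes, was not called at 8 h (-0.24 ± 0.08, adjusted p = 0.0792), fell by 0.42 ± 0.08 at 10 h (adjusted p = 0.0134) and was called below untreated cells after the inhibitor (-0.34 ± 0.08, adjusted p = 0.0406), where the main probe was not (-0.30 ± 0.09, adjusted p = 0.0913 in that fit). Centred on the array median, Mdm4 was not called at either time (-0.24, adjusted p = 0.244, and -0.22, adjusted p = 0.231).

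The 7 genes grouped here as p53 targets moved in both directions. At 8 h 4 of the 7 fell and 1 rose, where 11.5% of all features were lower and 10.3% higher; at 10 h 3 fell and 1 rose, where 14.8% were lower and 13.1% higher. Their median change was -0.64 and -0.69. Other p53 targets among the members, placed under other roles, are not in this count. Of these, Pmaip1 and Tnfrsf10b were called higher at both times and Mdm2 at 10 h. Bbc3, Bax and Fas were called at neither time. Sesn1, which encodes a stress-induced inhibitor of mTORC1 signalling, stood at 2.26 and 2.40 in untreated cells, 1.27 and 1.27 at 8 h, 1.28 and 1.12 at 10 h, and 2.12 and 2.11 after PD0325901. Ei24, which encodes an endoplasmic reticulum protein of autophagy first described as a p53-induced gene, stood at 2.12 and 2.27 in untreated cells, 1.13 and 1.17 at 8 h, 1.02 and 1.1 at 10 h, and 1.93 and 2.05 after PD0325901. In both genes the 4 arrays of 4OHT alone lay about 1 log2 unit below the other 4, with no overlap. Sesn1 fell by 1.06 ± 0.09 at 8 h (2.09-fold, adjusted p = 0.00133) and by 1.13 ± 0.09 at 10 h (adjusted p = 0.000864), and rose by 0.91 ± 0.09 with PD0325901 against 4OHT 10h (1.88-fold, adjusted p = 0.00592). Ei24 fell by 1.04 ± 0.09 (2.06-fold, adjusted p = 0.00143) and by 1.13 ± 0.09 (adjusted p = 0.000874), and rose by 0.93 ± 0.09 with the inhibitor (1.9-fold, adjusted p = 0.00573). After the 2 h of inhibition neither was called against untreated cells (-0.21 ± 0.09 each, adjusted p = 0.155 for Sesn1 and 0.172 for Ei24). The falls kept their call with any array left out, whereas the rises against 4OHT 10h missed the threshold without 4OHT 10h replicate 2 or PD0325901 replicate 2 (adjusted p from 0.0614 to 0.0655 for Sesn1 and 0.0589 to 0.0622 for Ei24). Against 4OHT 8h Sesn1 rose by 0.85 ± 0.09 (adjusted p = 0.00761), a call lost without 4OHT 8h replicate 2 or either PD0325901 array (0.0544 to 0.0824). Ei24 rose by 0.84 ± 0.09 against 4OHT 8h (adjusted p = 0.00801), a call lost without either 4OHT 8h array or PD0325901 replicate 2 (0.0528 to 0.0803).

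Perp moved the other way. Perp encodes a tetraspan membrane protein of desmosomes and is a target of both p53 and p63. It stood at 2.22 and 2.32 in untreated cells, 3.93 and 4.21 at 8 h, 4.17 and 4.60 at 10 h, and 3.85 and 4.29 after PD0325901. All 6 arrays with 4OHT lay above both untreated arrays, and the PD0325901 arrays overlapped those of 4OHT alone. Perp rose by 1.80 ± 0.21 at 8 h (3.48-fold, adjusted p = 0.00397) and by 2.11 ± 0.21 at 10 h (4.33-fold, adjusted p = 0.002). It was not called against 4OHT 10h after the inhibitor (-0.31 ± 0.21, 95% interval -0.84 to 0.22, adjusted p = 0.467) and stayed 3.48-fold above untreated cells (1.80 ± 0.21, adjusted p = 0.00655). That last call missed the threshold without untreated replicate 2 or PD0325901 replicate 2 (adjusted p = 0.0538 and 0.0544).

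Of the remaining genes grouped as p53 targets, Trp53inp1 was called lower at both times and Zmat3 at 8 h. Trp53inp1, which encodes a stress protein that acts in p53-dependent apoptosis and autophagy, stood at 2.69 and 3.01 in untreated cells, 1.75 and 2.12 at 8 h, 1.89 and 2.09 at 10 h, and 2.07 and 2.36 after PD0325901. Its untreated arrays lay above the other 6, and it fell by 0.91 ± 0.19 at 8 h (adjusted p = 0.023) and by 0.86 ± 0.19 at 10 h (adjusted p = 0.0234). Without an array the call was lost at 8 h for 4 of the 8 (either 4OHT 8h array, untreated replicate 2 or 4OHT 10h replicate 2; adjusted p from 0.0541 to 0.123) and at 10 h for 3 (either 4OHT 10h array or untreated replicate 2; 0.086 to 0.12). After the inhibitor it differed from untreated cells by -0.64 ± 0.19 (adjusted p = 0.0766, and 0.00489 with the replicate block). Zmat3, a zinc finger RNA-binding protein gene, was called lower at 8 h (-0.64 ± 0.17, adjusted p = 0.0452) and not at 10 h (-0.53 ± 0.17, adjusted p = 0.0656, and 0.00671 with the block); the 8 h call was lost without any 1 of the 8 arrays (0.0507 to 0.197) and after centring on the median (-0.51, adjusted p = 0.0532). Ccng1, which encodes cyclin G1, stood at 2.04 and 2.40 in untreated cells, 1.35 and 1.90 at 8 h, 1.32 and 1.75 at 10 h, and 1.68 and 1.96 after PD0325901. In each group replicate 2 was the higher array, and the difference at 8 h (-0.59 ± 0.26) was not called without the replicate block (adjusted p = 0.16) and called with it (adjusted p = 0.00746); at 10 h it was -0.69 ± 0.26 (0.1 without and 0.00422 with the block). With the block Ccng1 and Zmat3 were also called lower after PD0325901 than in untreated cells (-0.40, adjusted p = 0.0275, and -0.39, adjusted p = 0.0226; without the block 0.331 and 0.167). Aen, the p53-induced nuclease gene, differed by 0.08 ± 0.13 at 8 h (95% interval -0.24 to 0.39, adjusted p = 0.714).

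**Figure D2:**
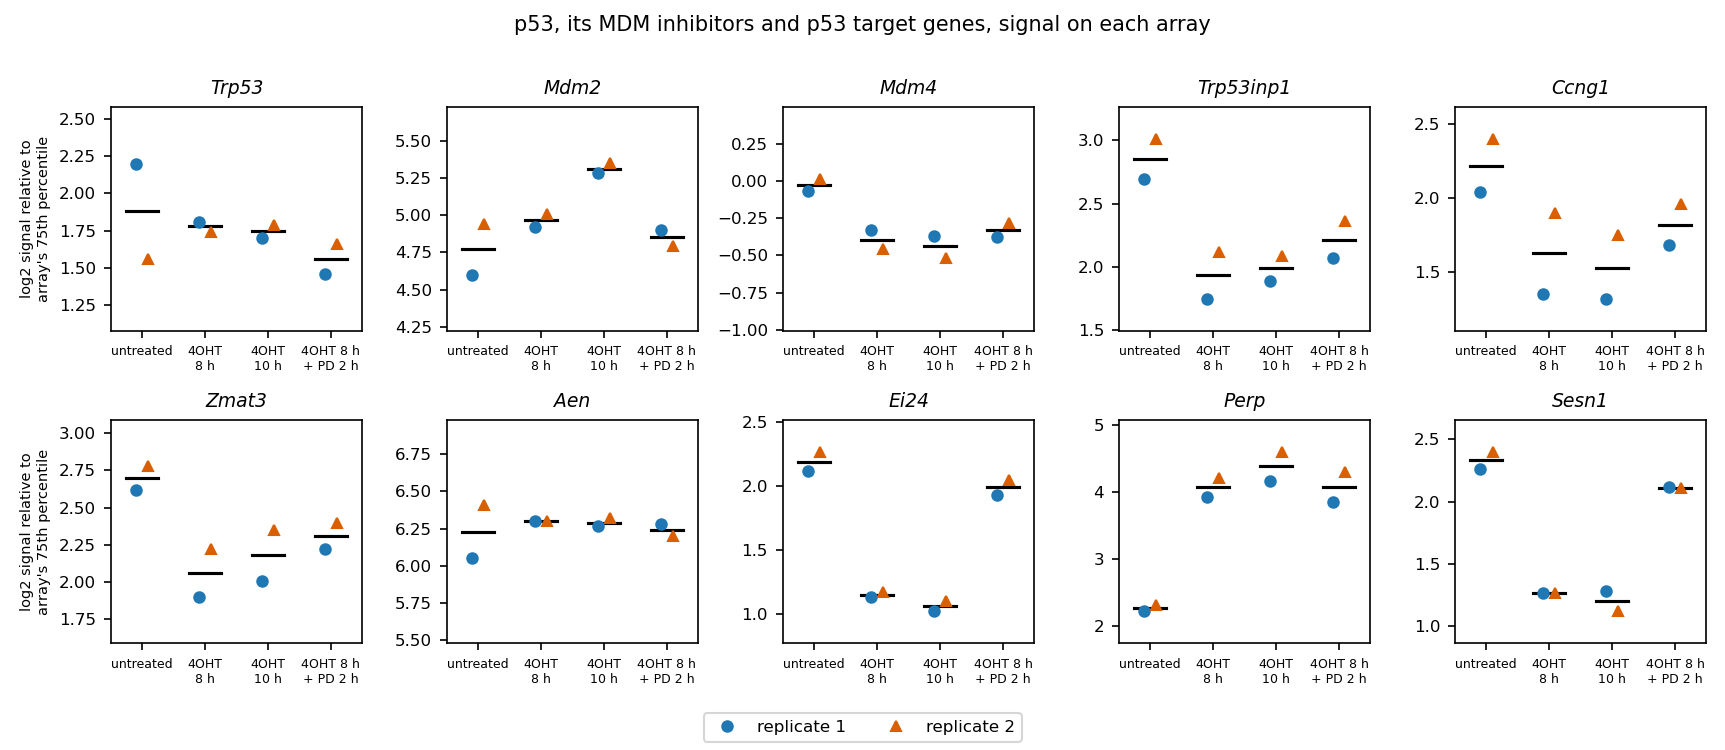
Log2 signal relative to the array's 75th percentile for Trp53, its inhibitors and the 7 target genes, on each array (circles, replicate 1; triangles, replicate 2; black lines, group means), with a separate vertical scale per gene. Ei24 and Sesn1 are low in both 4OHT groups and near the untreated level after PD0325901, while Perp is high in all 3 groups that received 4OHT.

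Promoter sequence was examined for motifs in the RefSeq table of assembly GRCm38.p6, which gives 300 bases per transcript start (250 before and 50 after). It holds 40 promoters of 27 of the 33 genes; Zmat3, Trp53inp1, Tnfrsf10b, Perp, Bik and Pmaip1 have none there. The motifs, searched on both strands, were the p53 decamer half-site, TGANTCA (AP-1, the site of FOS and JUN), GCGGGGGCG or GCGTGGGCG (EGR), CACGTG (E-box) and GTAAACA (FOXO), the last added after the expression values were known. A p53 half-site occurred in 10 of the 40 member promoters, belonging to 9 genes (Aen, Bax, Birc5, Bmf, Ccng1, Ei24, Mdm2, Sesn1 and Trp53), and in 8.36% of all 32851 promoters. AP-1 occurred in 2 (Fas and Mdm4; 7.81% of all), EGR in 3 (Bbc3, Bcl2l11 and Sesn1; 3.47%), the E-box in 5 (7.15%) and FOXO in 4 (Bbc3, Bcl2l11, Mdm2 and Sesn1; 3.65%). A match is a description of the letters and not a site bound in these cells. Shown for 4 genes are the 250 bases before a transcript start, 5′ to 3′ on the strand of the gene, with motif matches in capitals. Ei24 and Sesn1 are shown as the target genes that fell with 4OHT and rose with PD0325901, Mdm2 as the p53 target that encodes its inhibitor, and Bcl2l11 as the gene with the largest rise at 8 h among the 33. The Ei24 sequence lies at chr9:36797335-36797584 (minus strand) and its capitals are a p53 half-site whose first base is 10 bases before the start. The Sesn1 sequence lies at chr10:41887189-41887438 (plus strand), with a p53 half-site from 173 bases and an EGR match on the opposite strand from 10 bases before the start. The Mdm2 sequence lies at chr10:117710759-117711008 (minus strand), with a p53 half-site from 186 bases and a FOXO match from 153 bases before the start. The Bcl2l11 sequence lies at chr2:128125788-128126037 (plus strand), with a FOXO match from 227 bases and an EGR match from 50 bases before the start. For Sesn1 and Bcl2l11 the promoter with more matches is shown. The other Sesn1 promoter held only a FOXO match, 22 bases after its start, and the other Bcl2l11 promoter held none of the motifs.
Ei24: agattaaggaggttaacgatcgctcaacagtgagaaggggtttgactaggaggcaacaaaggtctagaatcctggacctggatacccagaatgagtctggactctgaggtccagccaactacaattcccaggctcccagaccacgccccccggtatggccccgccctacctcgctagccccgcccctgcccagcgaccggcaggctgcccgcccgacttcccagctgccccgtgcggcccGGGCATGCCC
Sesn1: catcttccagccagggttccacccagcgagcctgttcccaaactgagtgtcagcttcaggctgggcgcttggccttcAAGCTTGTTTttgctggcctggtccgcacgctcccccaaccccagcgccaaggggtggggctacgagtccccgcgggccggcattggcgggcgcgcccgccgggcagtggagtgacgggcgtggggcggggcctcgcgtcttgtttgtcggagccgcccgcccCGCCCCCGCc
Mdm2: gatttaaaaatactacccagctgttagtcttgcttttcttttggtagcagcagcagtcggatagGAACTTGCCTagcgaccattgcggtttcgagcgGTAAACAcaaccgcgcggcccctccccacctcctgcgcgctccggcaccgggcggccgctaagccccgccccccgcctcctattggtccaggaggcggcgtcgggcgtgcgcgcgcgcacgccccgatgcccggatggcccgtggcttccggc
Bcl2l11: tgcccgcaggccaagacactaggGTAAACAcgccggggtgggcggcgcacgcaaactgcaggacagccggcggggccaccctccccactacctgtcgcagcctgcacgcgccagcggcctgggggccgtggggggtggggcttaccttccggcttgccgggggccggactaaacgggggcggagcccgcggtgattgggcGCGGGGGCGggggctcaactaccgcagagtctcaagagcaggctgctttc

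Of the 7 BH3-only genes, which encode the proteins that start mitochondrial apoptosis, 3 rose (Pmaip1, Bcl2l11 and Bid) and 2 fell (Bmf and Bad) at each time of 4OHT. That is 71.4% of them at each time, beside 21.7% of all features called at 8 h and 27.9% at 10 h. The members were chosen with earlier results of these data known, so this share is only a description. Pmaip1, which encodes NOXA, an antagonist of MCL1, stood at 0.35 and 0.06 in untreated cells, 2.54 and 2.24 at 8 h, 2.60 and 2.27 at 10 h, and -0.41 and -0.97 after PD0325901. The 4OHT arrays lay highest and the PD0325901 arrays lowest, below even the untreated ones, with no overlap between these levels. Pmaip1 rose by 2.19 ± 0.24 at 8 h (4.56-fold, adjusted p = 0.00306) and by 2.23 ± 0.24 at 10 h (4.7-fold, adjusted p = 0.00227). With PD0325901 it fell by 3.13 ± 0.24 against 4OHT 10h (8.73-fold, adjusted p = 0.00307) and by 3.08 ± 0.24 against 4OHT 8h (8.46-fold, adjusted p = 0.00342). All 4 calls held with any array left out. Against untreated cells it was 1.86-fold lower after the inhibitor (-0.89 ± 0.24, adjusted p = 0.0576, and 0.00434 with the replicate block).

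Bmf followed the opposite course. BMF is a BH3-only protein associated with the dynein motor and the actin cytoskeleton. Its transcript stood at 1.41 and 1.53 in untreated cells, -0.28 and -0.04 at 8 h, 0.06 and -0.00 at 10 h, and 1.85 and 1.91 after PD0325901. The PD0325901 arrays were the highest, the untreated arrays next and the 4 arrays of 4OHT alone lowest, without overlap. Bmf fell by 1.63 ± 0.10 at 8 h (3.09-fold, adjusted p = 0.000669) and by 1.44 ± 0.10 at 10 h (2.71-fold, adjusted p = 0.000716). With PD0325901 it rose by 1.85 ± 0.10 against 4OHT 10h (3.59-fold, adjusted p = 0.00145) and by 2.04 ± 0.10 against 4OHT 8h (4.1-fold, adjusted p = 0.00125). These 4 calls also held with any array left out. Against untreated cells Bmf was 0.41 ± 0.10 higher after the inhibitor (adjusted p = 0.0522, 0.0319 with the block, and called at 0.53 when centred on the array median, adjusted p = 0.037).

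Bcl2l11 also rose with 4OHT and stayed above the untreated level after the inhibitor. It encodes BIM, which binds all the anti-apoptotic relatives. Its signal stood at -2.24 and -1.95 in untreated cells, 0.27 and 0.57 at 8 h, 0.15 and 0.54 at 10 h, and -0.75 and -0.28 after PD0325901. The PD0325901 arrays lay between the untreated arrays and those of 4OHT alone. Bcl2l11 rose by 2.52 ± 0.23 at 8 h (5.72-fold, adjusted p = 0.00173) and by 2.44 ± 0.23 at 10 h (5.43-fold, adjusted p = 0.00155). After the inhibitor it differed from 4OHT 10h by -0.86 ± 0.23, which was not called without the replicate block (adjusted p = 0.1) and called with it (adjusted p = 0.00559), and from 4OHT 8h by -0.93 ± 0.23 (0.0767 without and 0.00476 with the block). It remained 3-fold above untreated cells (1.58 ± 0.23, adjusted p = 0.0111), a call lost without either untreated array or PD0325901 replicate 2 (adjusted p from 0.0593 to 0.0742) and with the mean of its probes (0.0615). A further probe of Bcl2l11 rose by 1.57 ± 0.38 at 8 h and by 1.39 ± 0.38 at 10 h (adjusted p = 0.0379 and 0.0444 in a fit over all probes) and differed from untreated cells by 0.48 ± 0.38 after the inhibitor (adjusted p = 0.431).

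Bid and Bad changed less. Bid, whose protein is cleaved by caspase-8 and links death receptors to mitochondria, stood at 3.42 and 3.26 in untreated cells, 4.19 and 4.03 at 8 h, 4.27 and 4.17 at 10 h, and 3.84 and 3.79 after PD0325901. It rose by 0.77 ± 0.10 at 8 h (1.71-fold, adjusted p = 0.00472) and by 0.88 ± 0.10 at 10 h (1.84-fold, adjusted p = 0.00251). The inhibited cells lay between, without overlap: the difference from 4OHT 10h was -0.40 ± 0.10 (adjusted p = 0.0781, and 0.0204 with the block), that from 4OHT 8h was -0.29 ± 0.10 (0.153, and 0.0411 with the block), and that from untreated cells was 0.48 ± 0.10 (adjusted p = 0.0284, from 0.0516 to 0.138 without any 1 array). Bad, whose protein is held inactive by growth-factor-dependent phosphorylation, stood at 2.80 and 2.71 in untreated cells, 2.37 and 2.29 at 8 h, 2.39 and 2.22 at 10 h, and 2.66 and 2.56 after PD0325901. It fell by 0.43 ± 0.09 at 8 h (adjusted p = 0.0269) and by 0.45 ± 0.09 at 10 h (adjusted p = 0.0181), and its second probe fell by 0.47 ± 0.10 and 0.62 ± 0.10 (adjusted p = 0.0237 and 0.00828 over all probes). Centred on the array median Bad was not called at either time (-0.29, adjusted p = 0.182, and -0.26, adjusted p = 0.191). The 8 h call was lost without any 1 of 6 arrays (0.0512 to 0.176), those other than 4OHT 10h replicate 1 and PD0325901 replicate 1, and the 10 h call without either untreated array, 4OHT 8h replicate 2 or 4OHT 10h replicate 2 (0.0521 to 0.12). Its difference between the inhibited cells and those of 4OHT alone was called only with the replicate block (0.30 against 4OHT 10h, adjusted p = 0.0365, and 0.139 without the block; 0.28 against 4OHT 8h, 0.0427 and 0.16).

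Bbc3, which encodes PUMA, a main mediator of p53-induced apoptosis, stood at 2.56 and 3.04 in untreated cells, 1.97 and 2.23 at 8 h, 2.26 and 2.51 at 10 h, and 3.08 and 3.31 after PD0325901. Replicate 2 was the higher array in each group, and the 4OHT arrays lay below the untreated and PD0325901 arrays. The difference at 8 h was -0.70 ± 0.20 (adjusted p = 0.0592, and 0.00493 with the replicate block) and at 10 h -0.42 ± 0.20 (0.177, and 0.0185 with the block). With PD0325901 Bbc3 rose by 1.1 ± 0.20 against 4OHT 8h (2.14-fold, adjusted p = 0.0353), while the difference from 4OHT 10h was 0.81 ± 0.20 (0.084, and 0.00914 with the block) and that from untreated cells 0.40 ± 0.20 (0.23, and 0.0291 with the block). The call against 4OHT 8h was lost without any 1 of 7 arrays (adjusted p from 0.0521 to 0.183), all but untreated replicate 1. Bik, a BH3-only gene of the endoplasmic reticulum pathway, was not called in any comparison (-0.47 ± 0.26 at 8 h, adjusted p = 0.254).

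**Figure D3:**
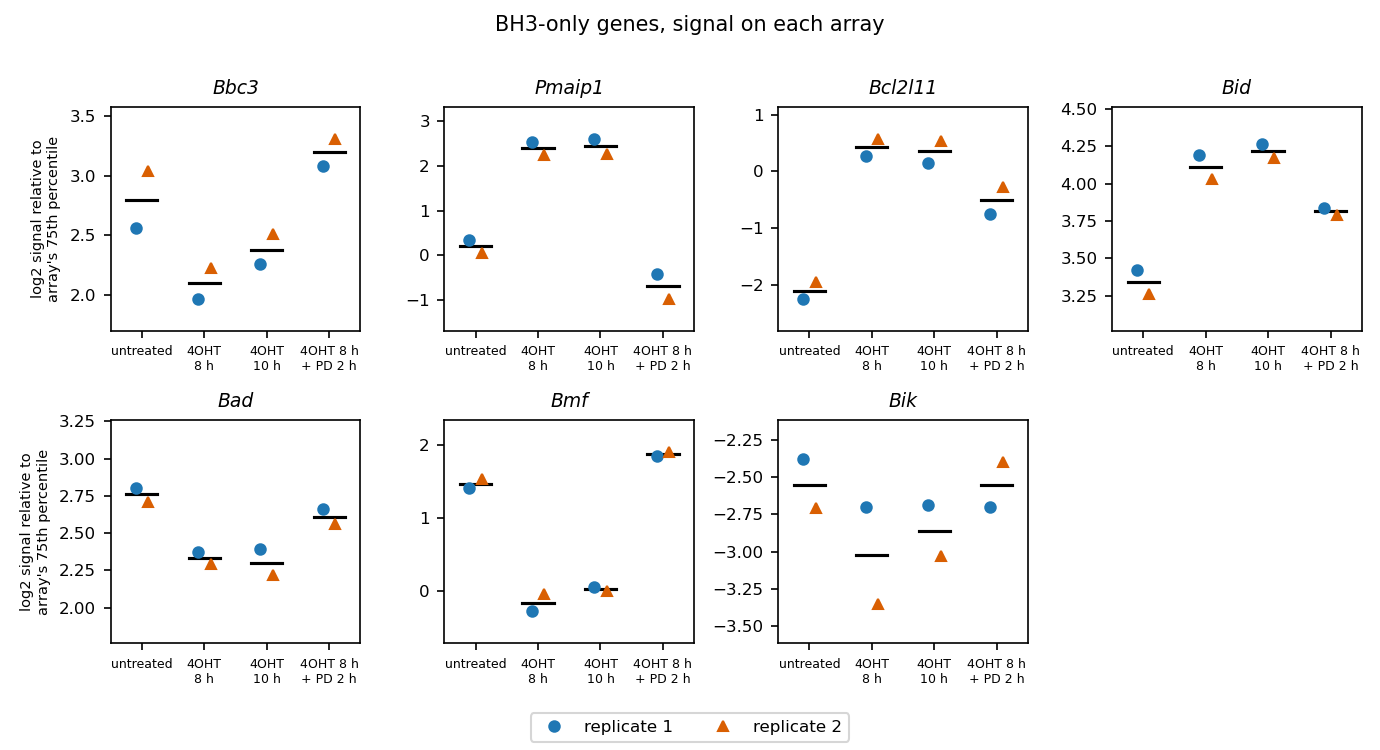
Log2 signal relative to the array's 75th percentile for the 7 BH3-only genes on each array (circles, replicate 1; triangles, replicate 2; black lines, group means), with a separate vertical scale per gene. Pmaip1 is high with 4OHT and lowest after PD0325901, Bmf is low with 4OHT and highest after PD0325901, and Bcl2l11 and Bid lie between after PD0325901.

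Among the 4 anti-apoptotic relatives the called rise at 8 h was that of Bcl2l1, which encodes BCL-XL. Its signal stood at 4.85 and 4.71 in untreated cells, 5.76 and 5.71 at 8 h, 5.78 and 5.73 at 10 h, and 4.98 and 5.03 after PD0325901. The 4 arrays of 4OHT alone lay well above the other 4. Bcl2l1 rose by 0.95 ± 0.08 at 8 h (1.94-fold, adjusted p = 0.00127) and by 0.97 ± 0.08 at 10 h (1.96-fold, adjusted p = 0.000937), and fell by 0.75 ± 0.08 with PD0325901 against 4OHT 10h (1.69-fold, adjusted p = 0.00735) and by 0.73 ± 0.08 against 4OHT 8h (adjusted p = 0.00801). The rises held with any array left out. The fall against 4OHT 10h missed the threshold without 4OHT 10h replicate 2 or either PD0325901 array (adjusted p from 0.054 to 0.076), and that against 4OHT 8h without any 1 array of the groups compared (0.0543 to 0.0798). A further Bcl2l1 probe moved the same way (1.19 ± 0.08 at 8 h, adjusted p = 0.000838, and -0.62 ± 0.08 against 4OHT 10h, adjusted p = 0.0151, over all probes) but stayed called above untreated cells after the inhibitor (0.61 ± 0.08, adjusted p = 0.00879), where the main probe was not (0.22 ± 0.08, adjusted p = 0.114).

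Mcl1, which encodes the short-lived anti-apoptotic protein that NOXA targets, stood at 5.81 and 5.82 in untreated cells, 6.02 and 6.05 at 8 h, 6.14 and 6.19 at 10 h, and 5.70 and 5.91 after PD0325901. It was called higher at 10 h (0.35 ± 0.09, 1.27-fold, adjusted p = 0.0371), a call lost without any 1 of the 6 arrays of untreated, 4OHT 8h and 4OHT 10h cells (adjusted p from 0.0748 to 0.189) and not made by the other probe (0.32 ± 0.10, adjusted p = 0.0661 over all probes). The probes also differed after the inhibitor. The main probe gave -0.36 ± 0.09 against 4OHT 10h (adjusted p = 0.0863, and 0.0448 with the block), whereas the other probe fell by 0.74 ± 0.10 (adjusted p = 0.0176 over all probes), fell by 0.70 ± 0.10 against 4OHT 8h (adjusted p = 0.0191; main probe -0.23 ± 0.09, 0.229) and lay below untreated cells (-0.42 ± 0.10, adjusted p = 0.0454). Bcl2 and Bcl2l2, which encodes BCL-W, were not called in any comparison; at 8 h their 95% intervals ran from -0.38 to 0.24 and from -0.30 to 0.29.

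The pore-forming effectors showed small differences. Bax stood between 5.62 and 5.91 on all 8 arrays, with the untreated arrays at both ends, and differed by -0.05 ± 0.11 at 8 h (95% interval -0.32 to 0.22). Bak1 differed by -0.15 ± 0.10 at 8 h and by -0.22 ± 0.10 at 10 h (adjusted p = 0.333 and 0.152). Bok, which encodes a BAX relative not restrained by BCL2, stood at 1.46 and 1.55 in untreated cells, 1.18 and 1.34 at 8 h, 1.5 and 1.52 at 10 h, and 1.74 and 1.83 after PD0325901. The PD0325901 arrays were the highest and the 8 h arrays the lowest. Bok was called higher after PD0325901 than at 8 h (0.53 ± 0.08, 1.44-fold, adjusted p = 0.0245), a call lost without any 1 of the 8 arrays (0.055 to 0.141). With the block it was also called lower at 8 h than in untreated cells (-0.25, adjusted p = 0.0376, and 0.0948 without the block) and higher than in untreated cells after PD0325901 (0.28, adjusted p = 0.0324, and 0.0817 without); the latter was also called when centred on the array median (0.40, adjusted p = 0.0475).

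Of the death receptors, Tnfrsf10b, the mouse receptor for TRAIL, stood at 1.90 and 1.89 in untreated cells, 2.93 and 2.70 at 8 h, 2.98 and 2.73 at 10 h, and 2.58 and 2.39 after PD0325901. All 6 arrays with 4OHT lay above the untreated ones. It rose by 0.92 ± 0.13 at 8 h (1.89-fold, adjusted p = 0.00701, or 0.055 without untreated replicate 2) and by 0.96 ± 0.13 at 10 h (1.95-fold, adjusted p = 0.00482). After the inhibitor it was still called above untreated cells (0.59 ± 0.13, 1.5-fold, adjusted p = 0.0359, from 0.0504 to 0.154 without any 1 array), and its difference from 4OHT 10h was -0.37 ± 0.13 (adjusted p = 0.185). Fas, the receptor for Fas ligand, was not well above background on any untreated or 4OHT 8h array and well above it on both arrays of the other groups. Its measured signal was -5.57 and -5.09 in untreated cells, -5.89 and -6.31 at 8 h, -4.99 and -3.92 at 10 h, and -3.89 and -3.55 after PD0325901. Taking the lowest signal well above background, or the probe's own where higher, as the level of the dim group, Fas was at least 2.22-fold higher after PD0325901 than at 8 h (adjusted p = 0.0254) and at least 2.13-fold higher than in untreated cells (adjusted p = 0.0454). Each call was lost without any 1 of the 6 arrays other than those of 4OHT 10h (0.0598 to 0.166 and 0.0793 to 0.202). Against untreated cells Fas was not called at 10 h (at least 1.28-fold higher, adjusted p = 0.151). The adjusted p-values of Fas are those of the limma fit to the measured signals and do not test these bounds.

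**Figure D4:**
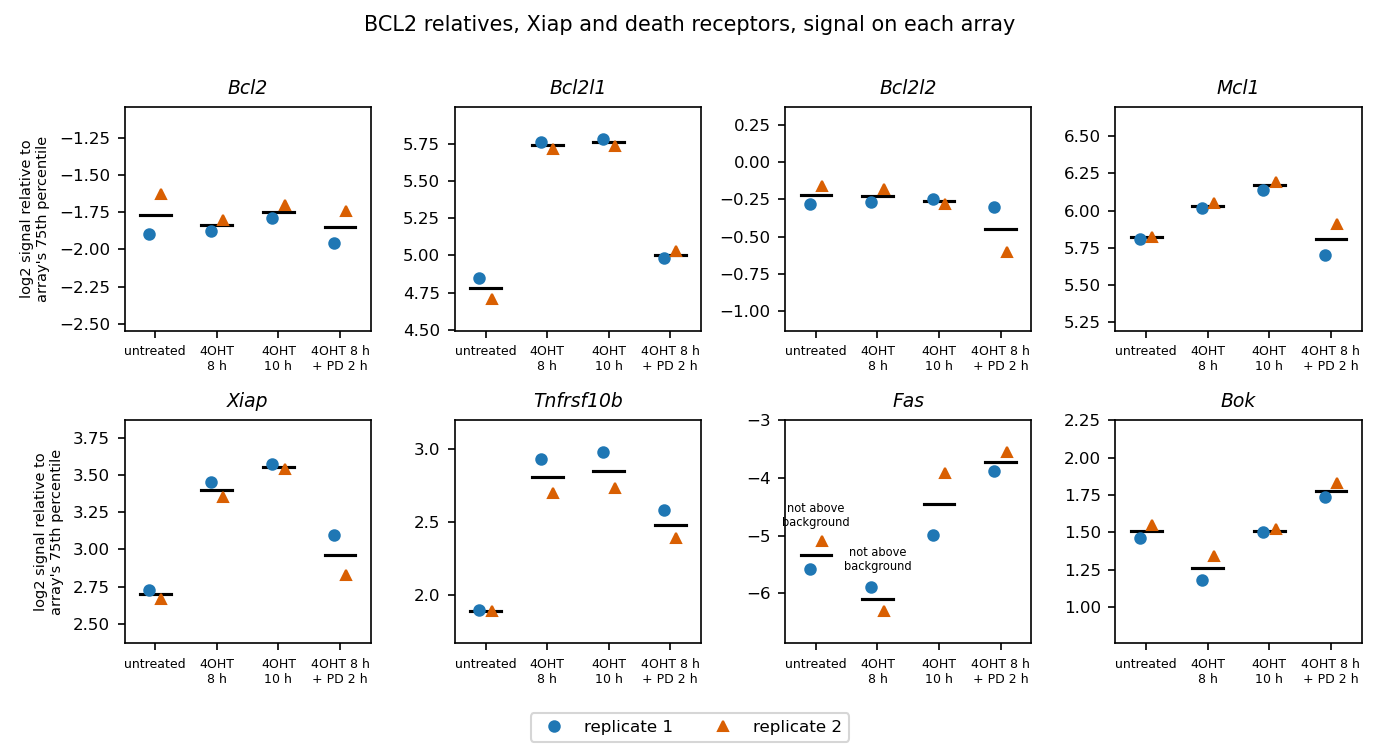
Log2 signal relative to the array's 75th percentile for the 4 anti-apoptotic BCL2 relatives, Xiap, the 2 death receptors and Bok, on each array (circles, replicate 1; triangles, replicate 2; black lines, group means), with a separate vertical scale per gene. Bcl2l1 and Xiap are high with 4OHT alone, Tnfrsf10b is above the untreated level in all 3 groups that received 4OHT, and Fas was not well above background in untreated and 4OHT 8h cells.

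The caspase genes gave no call, and Apaf1 gave 1. Apaf1, whose protein forms the apoptosome, stood at -1.19 and -1.07 in untreated cells, -1.48 and -1.49 at 8 h, -1.74 and -1.52 at 10 h, and -1.42 and -1.59 after PD0325901. It was called lower at 10 h (-0.51 ± 0.11, 1.42-fold, adjusted p = 0.0216), a call lost without either untreated array, either 4OHT 10h array or 4OHT 8h replicate 2 (adjusted p from 0.0519 to 0.115) and when centred on the array median (-0.31, adjusted p = 0.056). Casp9, which encodes the caspase that APAF1 activates, stood at 1.56 and 1.49 in untreated cells, 0.76 and 0.41 at 8 h, 0.99 and 0.46 at 10 h, and 1.46 and 0.71 after PD0325901. Replicate 2 was the lower array in each group, and the differences of -0.94 ± 0.30 and -0.80 ± 0.30 were called only with the replicate block (adjusted p = 0.0158 and 0.022, and 0.0792 and 0.102 without it). Casp8, the initiator caspase of death receptors, was likewise called only with the block, at 10 h (0.70 ± 0.38, adjusted p = 0.0156, and 0.222 without it). Casp2, the caspase of the PIDDosome, differed by 0.00 ± 0.11 at 8 h (95% interval -0.26 to 0.27).

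Of the inhibitor-of-apoptosis genes, Xiap, whose protein blocks caspase-3, caspase-7 and caspase-9, stood at 2.73 and 2.67 in untreated cells, 3.45 and 3.35 at 8 h, 3.57 and 3.54 at 10 h, and 3.10 and 2.83 after PD0325901. The PD0325901 arrays lay between the untreated arrays and those of 4OHT alone. Xiap rose by 0.70 ± 0.11 at 8 h (1.63-fold, adjusted p = 0.00867) and by 0.86 ± 0.11 at 10 h (1.81-fold, adjusted p = 0.00372), and fell by 0.59 ± 0.11 with PD0325901 against 4OHT 10h (1.51-fold, adjusted p = 0.0357). Against 4OHT 8h the difference of -0.44 ± 0.11 was called with the block (adjusted p = 0.0317) and not without it (0.0763). The 8 h rise missed the threshold without either 4OHT 8h array or untreated replicate 2 (adjusted p from 0.0534 to 0.0641), and the fall without any 1 of 7 arrays (0.0791 to 0.194), all but PD0325901 replicate 1. Birc5, which encodes survivin, a mitotic protein as well as an IAP, stayed between 6.74 and 7.0 on all 8 arrays, and Diablo, the XIAP antagonist, differed by 0.14 ± 0.07 at 8 h (adjusted p = 0.222). Centred on the array median, Diablo was called higher at 10 h (0.34, adjusted p = 0.0449, where the 75th percentile gave 0.15 and 0.192).

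Of the 13 genes called the same way at both times of 4OHT, 5 moved back with PD0325901 in both inhibitor comparisons: Pmaip1 and Bcl2l1 fell, and Bmf, Ei24 and Sesn1 rose. Another 4, Perp, Bcl2l11, Bid and Tnfrsf10b, were still called above untreated cells after the inhibitor, and Fas, not called after 4OHT alone, completed the 5 called in that comparison. The shares of all features called at both times, moving back or still called were not computed, so these counts are not a result about the members. Against untreated cells 15.2% of the members were called after the inhibitor, near the 15.9% of all features. All 13 genes had an estimate against 4OHT 10h with a sign opposite to their 10 h change. Both of these comparisons use the 4OHT 10h arrays, which by itself favours opposite signs. Among the members' calls in the inhibitor comparisons, only those of Pmaip1 and Bmf held under each alternative of the processing and with each array left out.

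**Figure D5:**
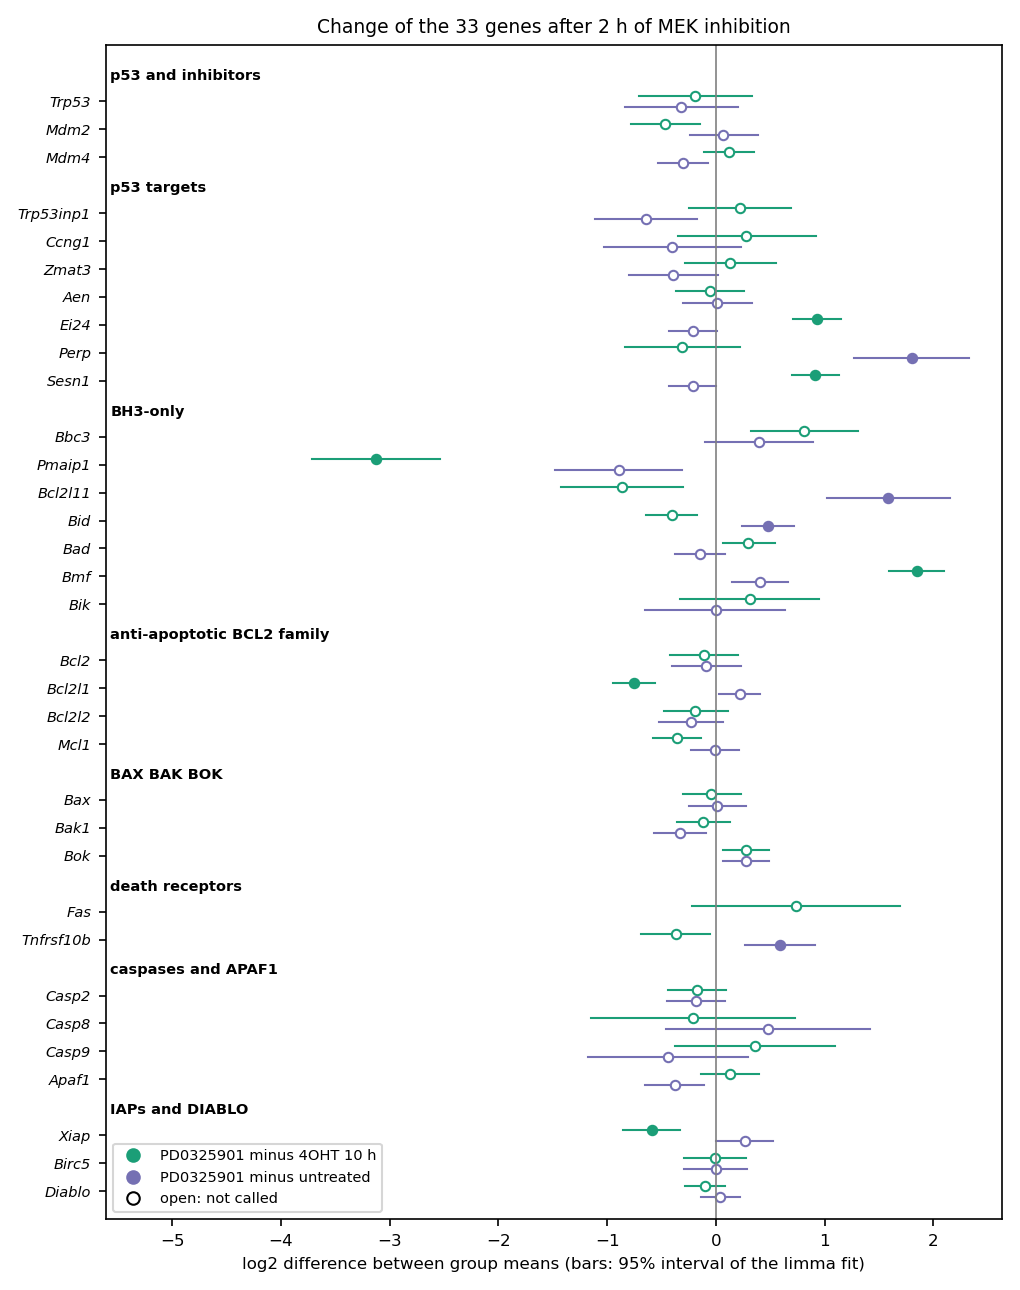
Log2 change of the genes in cells given PD0325901 for the last 2 h, against 4OHT 10h cells (green) and against untreated cells (purple); horizontal bars are the 95% intervals of the limma fit, filled points were called, open points were not, and Fas is not drawn against untreated cells. Both series share the PD0325901 arrays, and Pmaip1 lies at -3.13 and Bmf at 1.85 against 4OHT 10h, while Perp and Bcl2l11 lie at -0.31 and -0.86 against 4OHT 10h and at 1.80 and 1.58 against untreated cells.

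Other genes of the pathway were read from lists. Of 25 further p53 targets tested, 3 rose and 8 fell at 8 h (median -0.35), 3 rose and 9 fell at 10 h (median -0.29), and none rose and 3 fell with PD0325901 against 4OHT 10h (median 0.07). That is 44%, 48% and 12% of the list, beside 21.7%, 27.9% and 6.12% of all features. The lists here and below were chosen with earlier results of these data known, so their shares are only a description. Without a filter on dim probes 6, 7 and 0 of these targets were called, and centred on the array median the split at 10 h became 7 higher and 5 lower. The 3 that rose were the same in both 4OHT comparisons and were the 3 that fell with the inhibitor. They were Gadd45a, a stress gene of growth arrest (1.78 ± 0.15 at 8 h, adjusted p = 0.00138, and -1.05 ± 0.15 with the inhibitor, adjusted p = 0.0188), Plk3, a stress-responsive polo-like kinase gene (1.47 ± 0.22, adjusted p = 0.00869, and -1.31 ± 0.22, adjusted p = 0.0301), and Cd80, a T-cell co-stimulator gene (1.09 ± 0.07, adjusted p = 0.000645, and -0.68 ± 0.07, adjusted p = 0.00684). After the inhibitor Gadd45a and Cd80 were still called above untreated cells (0.80 ± 0.15, adjusted p = 0.023, and 0.37 ± 0.07, adjusted p = 0.0215). Cdkn1a, which encodes the cell-cycle inhibitor p21 and is the most used readout of p53 activity, fell by 1.24 ± 0.23 at 8 h (2.37-fold, adjusted p = 0.0155) and by 0.95 ± 0.23 at 10 h (adjusted p = 0.0299). Centred on the array median the fall of Cdkn1a at 10 h was not called (-0.75, adjusted p = 0.0654). With PD0325901 Cdkn1a rose by 1.24 ± 0.23 against 4OHT 8h (adjusted p = 0.0358) and differed by 0.95 ± 0.23 from 4OHT 10h (0.079, and 0.0245 with the block), reaching the untreated level (-0.00 ± 0.23). Phlda3, which encodes an AKT antagonist, fell by 0.90 ± 0.11 at 8 h (adjusted p = 0.00381), and Pidd1, which encodes the scaffold that activates caspase-2, by 0.79 ± 0.08 (adjusted p = 0.00216). Rrm2b, a ribonucleotide reductase subunit gene, was at least 1.99-fold lower at 10 h (adjusted p = 0.0328), where it was not well above background. With the replicate block 8 of these targets were called in the inhibitor comparison in place of 3. The count at 8 h was 4 without 4OHT 8h replicate 2 and at 10 h 5 without 4OHT 10h replicate 2, and in the inhibitor comparison it was 0 without either of 4OHT 10h replicate 2 and PD0325901 replicate 2.

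Of 25 other p53 regulators, 4 rose and 2 fell at 8 h (median 0.01), 4 rose and 3 fell at 10 h (median 0.07), and 1 rose and 3 fell with PD0325901 against 4OHT 10h (median -0.06). At 24% and 28% the called share of this list was near that of all features after 4OHT (21.7% and 27.9%); in the inhibitor comparison it was 16%, beside 6.12%. Without a filter on dim probes 4, 5 and 2 were called. Sirt1, which encodes a deacetylase of p53, rose by 1.13 ± 0.09 at 8 h (2.19-fold, adjusted p = 0.00138) and fell by 1.14 ± 0.09 with the inhibitor (adjusted p = 0.00383), to 0.03 ± 0.09 from the untreated level. Topors, a ubiquitin and SUMO ligase gene, rose by 0.73 ± 0.09 (adjusted p = 0.00402) and fell by 0.86 ± 0.09 (adjusted p = 0.00677). The p53-binding ASPP genes moved apart: Trp53bp2 (ASPP2) rose by 0.61 ± 0.11 (adjusted p = 0.0138) and fell by 0.63 ± 0.11 with the inhibitor (adjusted p = 0.0309), while Ppp1r13b (ASPP1) fell by 1.11 ± 0.17 (adjusted p = 0.00937) and rose by 0.89 ± 0.17 (adjusted p = 0.0428). Chek2, the checkpoint kinase gene upstream of p53, fell by 1.14 ± 0.10 at 8 h (adjusted p = 0.00154) and stayed low after the inhibitor (-1.05 ± 0.10 from untreated cells, adjusted p = 0.00372). Chek1 was called lower at 10 h (-0.43 ± 0.11, adjusted p = 0.0377), but not when centred on the array median (-0.24, adjusted p = 0.23). The count at 8 h was 3 without untreated replicate 1, untreated replicate 2 or 4OHT 8h replicate 1, that at 10 h was 4 without 4OHT 10h replicate 2, and that of the inhibitor comparison was 0 without PD0325901 replicate 2.

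Of 30 other genes of the apoptosis machinery, 2 rose and 3 fell at 8 h (median 0.07), 10 rose and 4 fell at 10 h (median 0.05), and 3 rose with PD0325901 against 4OHT 10h (median 0.02). That is 16.7%, 46.7% and 10% of the list, the first below and the others above the share of all features (21.7%, 27.9% and 6.12%). These counts were unstable: without a filter on dim probes they were 0, 2 and 0, fitted on only the groups compared 1, 4 and 0, and centred on the array median none was lower after 4OHT (6 higher at 8 h and 13 at 10 h). Hrk, a further BH3-only gene, was called higher at 10 h (1.13 ± 0.26, 2.19-fold, adjusted p = 0.0252) and differed by 0.88 ± 0.26 at 8 h (0.0625, and 0.0101 with the block). Bcl2l14 and the receptor adaptor gene Tradd were called higher at 10 h (0.97 ± 0.26, adjusted p = 0.0408, and 0.74 ± 0.19, adjusted p = 0.0387). Bag3, a co-chaperone gene, rose by 0.49 ± 0.10 at 8 h (adjusted p = 0.0222) and Pdcd10 by 0.30 ± 0.08 (adjusted p = 0.0429). Fadd, the adaptor of death receptors, fell by 0.46 ± 0.08 at 8 h (adjusted p = 0.0131), Endog, a mitochondrial nuclease gene, by 0.42 ± 0.09 (adjusted p = 0.0278), and Htra2, a mitochondrial protease gene, by 0.26 ± 0.07 (adjusted p = 0.0443). Centred on the array median Fadd, Endog and Htra2 were not called at 8 h (adjusted p = 0.0947, 0.0632 and 0.448). Birc2, which encodes cIAP1, fell by 0.36 ± 0.08 at 10 h (adjusted p = 0.025) and rose by 0.51 ± 0.08 with the inhibitor (adjusted p = 0.0248); centred on the array median neither was called (adjusted p = 0.361 and 0.115). Bcl2l10, an anti-apoptotic relative known from oocytes, was not well above background in 4OHT 10h cells and was at least 3.63-fold higher after PD0325901 (adjusted p = 0.0211). Septin4, whose ARTS isoform binds XIAP, rose by 1.94 ± 0.33 with the inhibitor (adjusted p = 0.0307), from a 4OHT 10h level that was well above background on 1 of 2 arrays. With the block 13 genes of this list were called at 8 h and 7 in the inhibitor comparison. The count at 8 h was 0 without untreated replicate 1 or untreated replicate 2, that at 10 h was 3 without untreated replicate 2 or 4OHT 10h replicate 2, and that of the inhibitor comparison was 0 or 1 without any 1 of the 8 arrays.

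The labelled cell type was checked against marker lists. All 8 embryonic stem cell markers were well above background in every group, with a summed linear level (in units of the array's 75th percentile) of 832 and 858 in untreated cells and between 739 and 926 in the others. At 8 h Nanog fell by 2.59 (adjusted p = 0.000885) and Utf1 rose by 0.93 (adjusted p = 0.00141); the other 6 were not called, with changes from -0.26 to 0.28. Of 8 trophoblast markers 7 were kept, with Elf5 not well above background, and their sum went from 15.8 and 18.3 in untreated cells to 36.2 and 42.1 at 8 h, 50.4 and 63.5 at 10 h, and 45.4 and 43.2 after PD0325901. At 8 h Cdx2, Hand1, Eomes and Krt18 rose (by 6.37, 4.40, 2.00 and 1.70) and Tfap2c fell by 1.76 (adjusted p = 0.00646). Hand1 did not stand well above background on every untreated array, so the size of its rise is uncertain. Of 8 fibroblast markers 4 were kept (Col3a1, Postn, Dcn and Lum were not), and their sum went from 44 and 43 to between 69.4 and 105 in the groups given 4OHT. That list was mixed: Thy1 and Vim rose at 8 h (by 3.49 and 0.72), Col1a1 and Col1a2 differed by -0.27 and -0.36 without a call, and Col1a1 fell by 0.58 at 10 h (adjusted p = 0.0126). All 8 primitive endoderm markers were kept, summing to 28 and 25.5 in untreated cells and to between 32.4 and 42.7 in the others, with Lamb1 alone called at 8 h (0.58, adjusted p = 0.0161). The sum is mostly Lamb1 (4.65 and 4.62 in untreated cells). The other markers were higher in replicate 1 than in replicate 2 in every group (Gata6 -0.30 and -2.26 in untreated cells), so their changes were poorly resolved. Sox17, Pdgfra and Dab2 did not stand well above background on every 4OHT 8h array. The part of these cell types in the changes of the 33 genes was not tested.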

How the data were processed

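Labelling used 100 ng of total RNA and Agilent's low-input kit, per the labels' protocols; Cy5 is the dye named, although each file holds 1 channel under Agilent's name for green. The deposited processed signal is an intensity with background removed and no scaling between arrays; it came from Feature Extraction 11.0.1.1 (Agilent; design 028005, build mm9), per the file headers. The deposited files also hold median signal and background intensity and marks of 0 or 1 for spots above background, saturated or outlying. The deposited value table holds the same intensity to within 0.5%, on a linear scale and not centred.

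Control spots (3671 of 62976) and outlier spots (169 to 249 per array) were left out, and no spot was saturated. Symbols came from the unversioned RefSeq accession (assembly GRCm38.p6): of 55681 probes 27656 matched 1 symbol and 28025 none. Log2 signal minus the array's 75th percentile was used, replicate spots were averaged by probe, and the 30329 probes marked well above background on the whole of at least 1 group were kept. A gene took its kept probe with the highest mean; 9 members had several, and where their calls disagree both are given. limma 3.58.1 (R 4.3.3) fitted a mean per group to all 8 arrays, with 4 residual and 1.71 prior degrees of freedom, a median residual SD of 0.129, Benjamini-Hochberg adjustment and no fold minimum; the fit was tested on simulated data. Except among the cell type markers, a probe well above background on no array of a group is given as a bound. One well above it on 1 of 2 arrays keeps its fitted value, as said there. The adjusted p-value beside a bound is that of the fit to the measured signals and does not test the bound. Cell type markers are given as fitted values. Same-numbered arrays, numbered in the labels, deviated together from their group means (r from 0.29 to 0.36 over genes in all 6 pairs of groups). The replicate number was therefore taken as a pairing, but the main fit leaves it out. With the block no member lost a call. Calls were gained by 4 members at 8 h, 5 at 10 h, 5 against 4OHT 10h, 4 against 4OHT 8h and 7 against untreated cells. A member not called in the main fit may thus be called once the pairing is used.

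The members and lists were chosen with earlier results of these data known. All members may be named; from each list the called genes with the 3 largest rises and 3 largest falls in the first 3 comparisons are named. BH3 sequence was not analysed here. Python 3.11.15, numpy 2.4.6, pandas 2.3.3 and matplotlib were used for reading and drawing. Alternatives were the block, median centring, quantile normalization, normexp background (offset 50), no filter, the mean of a gene's probes, an intensity trend with robust prior, the value table, only the groups compared, and each array left out.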

Additional observations from a re-analysis of the deposited data

How the results depend on the processing

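No change of a called member reversed under any alternative. Of the 14 members called at 8 h, 8 kept their call under all alternatives and with each array left out, as did 10 of 16 at 10 h, 2 of 6 for PD0325901 against 4OHT 10h, 2 of 8 against 4OHT 8h and 0 of 5 against untreated cells. With each array left out in turn, the counts ranged from 8 to 12, 10 to 16, 2 to 5, 2 to 6 and 0 to 3 in that order. Without a filter on dim probes, the counts were 10 at 10 h, 4 against 4OHT 8h and 2 against untreated cells. Fitted on only the groups compared, they were 2 against 4OHT 10h, 4 against 4OHT 8h and 3 against untreated cells. With an intensity trend and robust prior, they were 11 against 4OHT 10h and 9 against untreated cells, and normexp background gave 9 against untreated cells. With the replicate block, 11 were called against 4OHT 10h and 12 against untreated cells; apart from the genes given with their blocked values, the block changed no call of a member. Fitting only the groups compared or dropping the filter ended the calls of Bad, Mdm4, Trp53inp1 and Zmat3 at 8 h. Either also ended those of Apaf1, Bad, Mcl1, Mdm2 and Mdm4 at 10 h, of Bcl2l1 and Xiap against 4OHT 10h, of Bbc3, Bcl2l1 and Bok against 4OHT 8h, and of Bid and Tnfrsf10b against untreated cells. Dropping the filter alone ended those of Trp53inp1 at 10 h and of Fas in both comparisons that called it. Fitting only the groups compared ended those of Ei24 in both inhibitor comparisons and of Sesn1 against 4OHT 10h. Quantile normalization ended those of Mdm4 at 8 h, Mcl1 and Mdm2 at 10 h, Xiap against 4OHT 10h and Fas against untreated cells. Normexp background ended those of Fas against 4OHT 8h and Tnfrsf10b against untreated cells, the intensity trend that of Fas against untreated cells, and the deposited value table that of Mdm4 at 8 h. The cause of these differences was not tested. Signal over background limits Fas, Rrm2b, Bcl2l10 and Septin4, and the markers Hand1, Sox17, Pdgfra and Dab2.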
